A study of Mus musculus with 120 samples.

Results

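The measurements described here come from single liver leukocytes of mice kept for 4 weeks on a normal diet (ND) or on a methionine and choline deficient diet (MCDD). The wells were those listed with 1 sorted cell on the plates labelled with this sort, week and diet, which gave 6840 of the 44840 1-cell wells of the series. Of these, 3040 lay on 8 ND plates and 3800 on 10 MCDD plates, 380 on each plate. All mice were of the strain given as c57bl, the tissue was liver, and the cells had been selected on CD45 with no infection. The diet was the labelled difference between the groups. No sex, age or number of animals was given, and nothing says whether 2 plates came from 1 mouse or from several. The labels number the plates in 2 parts, written with a point between them, and the first part is 1 or 2. What either part stands for is not stated, so the first part could mark an animal or a group of plates. The p-values below therefore rest on how far plates differ from each other, and part of that may be technical. They treat plates as independent, and would be too small if plates of a diet shared a mouse. This could not be checked.

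CD45 is a phosphatase on the surface of nearly all leukocytes, so a CD45 sort of liver collects Kupffer cells, monocytes, neutrophils, dendritic cells, T and B lymphocytes and natural killer cells together. Hepatocytes, stellate cells and endothelium do not carry it. Methionine and choline are needed to make phosphatidylcholine, which packs hepatic fat for export, and rodents fed without both develop fatty, inflamed livers. The diet serves as a model of steatohepatitis that differs from the human disease in that the animals lose weight. Leukocyte classes hold different amounts of messenger RNA: resting lymphocytes are small and yield few genes, whereas macrophages, dendritic cells and dividing cells yield more. A shift in the make-up of the sort, a change within cells and a change in RNA capture can each alter the number of genes per well, and they cannot be told apart from that number.

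The values are 1 total count and 1 number of detected genes for each well. No transcript was measured by name in the values used here, so the sort could not be checked against Ptprc, the gene of CD45, or against hepatocyte genes, and no leukocyte class could be named. The files do not say whether the total counts reads or molecules. Cells were barcoded in the plate, pooled and amplified together by in vitro transcription. The plates were sequenced in the batches SB15, with 2 ND and 2 MCDD plates, and SB19, with 6 ND and 8 MCDD plates, and diets were compared within batch throughout. All plate numbers of SB15 begin with 1, and those of SB19 begin with 1 or 2 under both diets. A number can recur in both batches within a diet. The summed total of a plate's 1-cell wells ranged from 13257908 to 27549456. Over all 1-cell wells the median was 381 genes at a total of 36752.5, whereas the 72 wells listed with no cell had a median of 21 genes at a total of 4037. Only 79 of the 1-cell wells (1.15%) had no more genes than that empty-well median.

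The median number of genes per well did not differ between the diets beyond the spread of the plates. In SB15 it was 351.5 and 446 on the ND plates, and 394.5 and 380 on the MCDD plates, so that both MCDD plates lay between the ND plates. In SB19 the ND plates ran from 328.5 over a median of 367 to 407.5, and the MCDD plates from 255.5 over 398.5 to 519. There, 3 of the 8 MCDD plates lay above every ND plate and 2 lay below every ND plate. The difference, MCDD minus ND on the log2 scale, was 0.05 ± 0.13 (SE), a 1.04-fold ratio with a 95% interval of 0.863 to 1.25 (exact permutation within batch, two-sided, p = 0.670, adjusted p = 0.819 over 8 comparisons). Its sign differed between the batches, at -0.03 in SB15 and 0.08 in SB19. Shifts inside that interval could not be told from none with these plates.

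The total per well averaged lower on MCDD plates in both batches, but the difference did not pass the test. In SB15 the median totals were 31893.5 and 36803 on ND and 29625.5 and 29231 on MCDD, with no overlap between the diets. In SB19 they ran from 34682.5 to 44926.5 on ND, with a median of 40969, and from 22247.5 to 51783.5 on MCDD, with a median of 37818. Of the 8 MCDD plates 3 lay below every ND plate and 1 lay above. The log2 difference was -0.17 ± 0.13 (SE), or 0.889-fold with an interval of 0.742 to 1.06 (exact permutation, p = 0.196, adjusted p = 0.785). SB15 on its own gave -0.22 and SB19 -0.16.

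**Figure D1:**
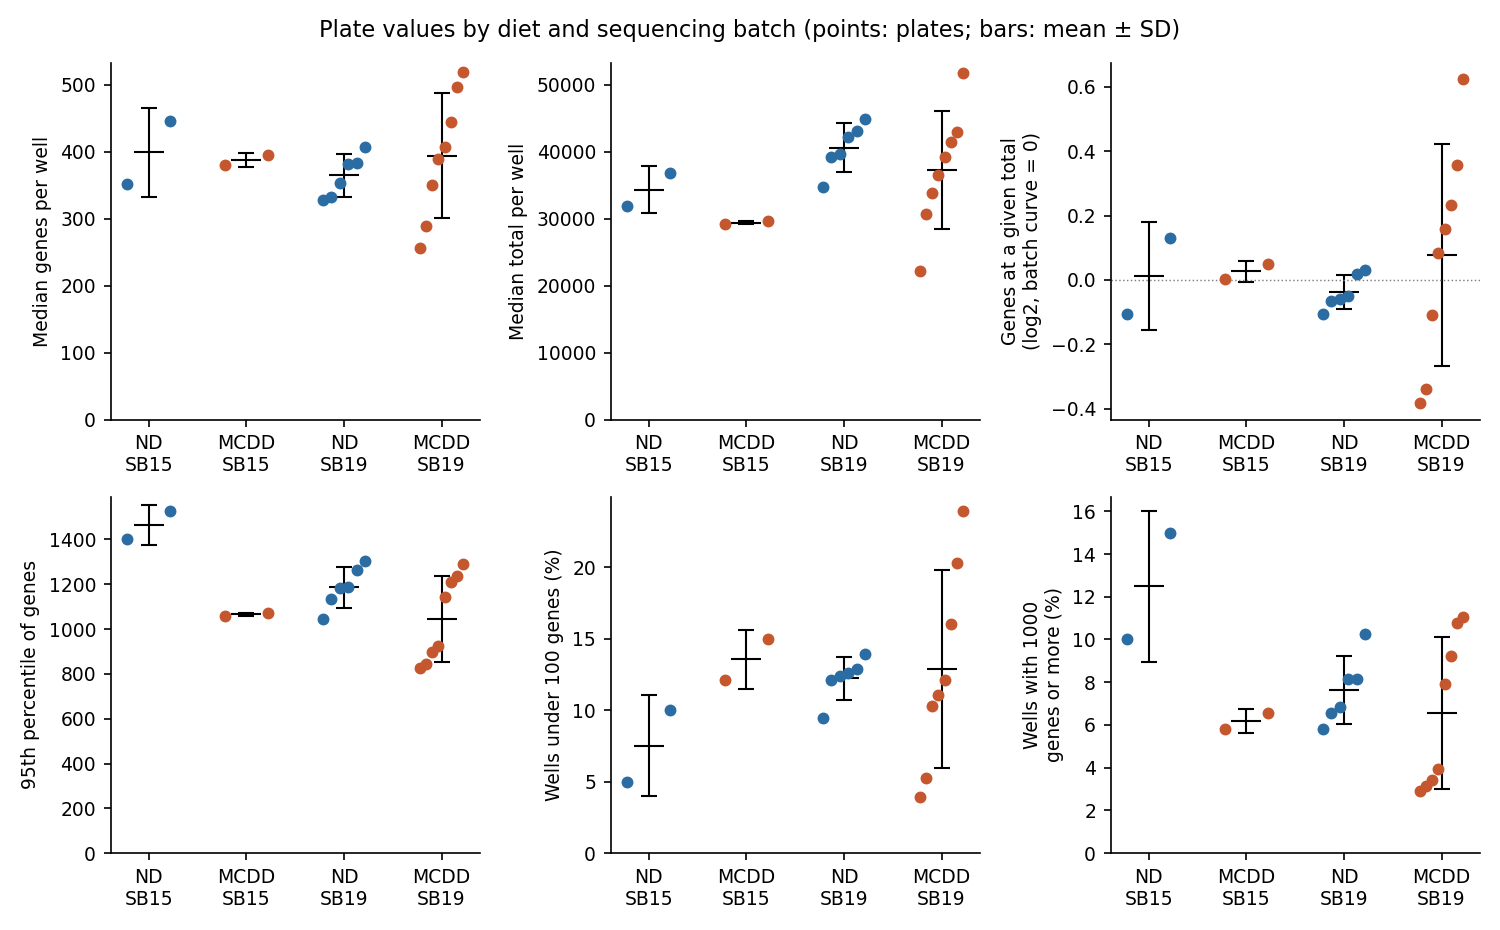
Each point is 1 plate of 380 1-cell wells, grouped by diet (ND blue, MCDD orange) and sequencing batch, with the mean and SD of the plates in black; the 6 panels give the median genes, the median total, the genes at a given total (log2), the 95th percentile of genes, and the shares of wells under 100 genes and with 1000 genes or more (percent). The 6 ND plates of SB19 lie close together in genes at a given total, from -0.10 to 0.03, and the 8 MCDD plates lie on both sides of them, from -0.38 to 0.62.

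Because the genes found in a well rise with its total, the wells were also compared at a given total. Within a plate the rank correlation of genes with the total over wells lay between 0.777 and 0.868, as a description, since wells of a plate share their library. For each batch a curve of the median log2 genes along 20 bins of the total was drawn over all its 1-cell wells, and each plate was scored by the median distance of its wells from that curve. The 2 ND plates of SB15 scored -0.11 and 0.13 and the 2 MCDD plates 0.05 and 0.00443. In SB19 the ND plates scored from -0.10 to 0.03 with a median of -0.05. No MCDD plate of SB19 fell within that range: 5 lay above it, at 0.62, 0.36, 0.23, 0.16 and 0.08, and 3 lay below it, at -0.11, -0.34 and -0.38. The mean difference between diets was 0.09 ± 0.12 on the log2 scale (SE, 95% interval -0.14 to 0.34; exact permutation, p = 0.430, adjusted p = 0.819).

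Wells of like total gave the same picture. The wells of each batch were divided into 5 equal parts by total, from the lowest, below 13692.6 in SB15 and 15676.4 in SB19, to the highest, above 70671.8 and 80079.4. In the third part, median genes on ND plates of SB19 averaged 360 ± 17.6 (SD, n = 6) and on MCDD plates 415.75 ± 97.7 (SD, n = 8). In the highest part they averaged 838.5 ± 31.3 on ND (SD, n = 6) and 848 ± 157 on MCDD (SD, n = 8), with MCDD plates from 663 to 1118. The 5 log2 differences over both batches lay between -0.02 and 0.16 and none passed (exact permutation, lowest p = 0.210, lowest adjusted p = 0.784 over 5). The lowest part differed in sign between batches, with -0.68 in SB15 and 0.19 in SB19. The highest part took 24.5% of ND wells and 15.5% of MCDD wells in SB15, with 2 plates a diet, and 22.2% and 18.4% in SB19. The plates of SB19 overlapped in this share, from 16.3% to 27.6% on ND and from 9.74% to 27.9% on MCDD. The share was not tested.

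**Figure D2:**
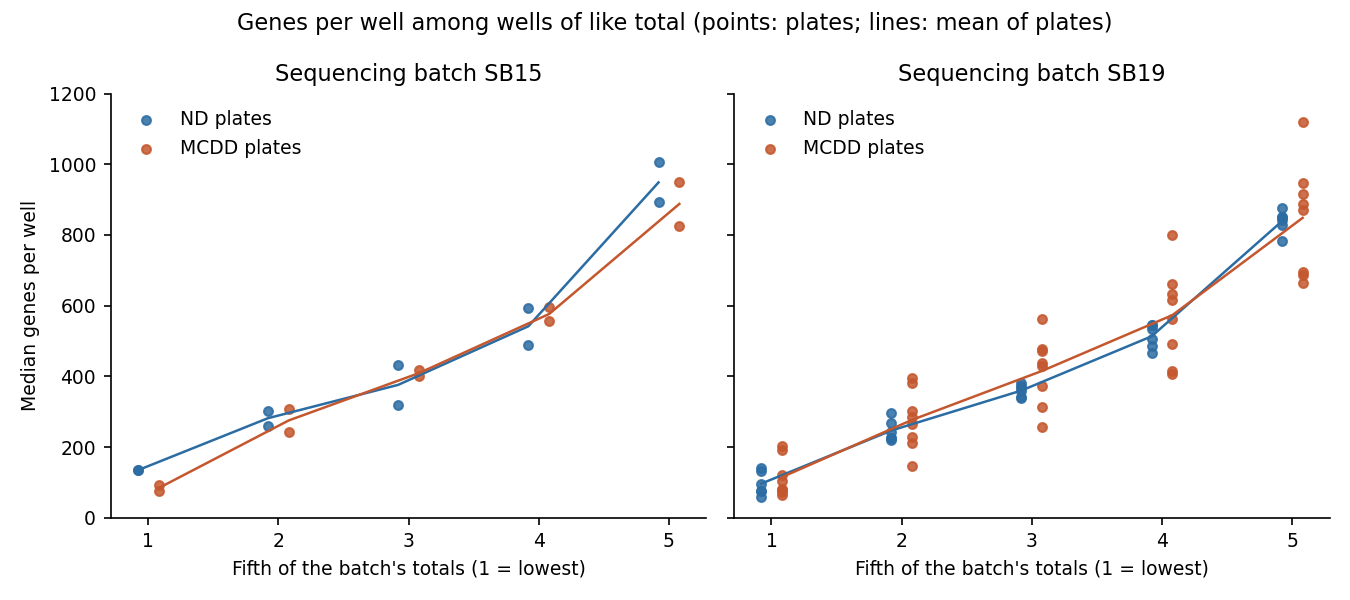
The median genes per well (vertical axis) are plotted for each plate within the 5 equal parts of its batch's totals (horizontal axis, 1 the lowest), ND in blue and MCDD in orange, with lines through the mean of the plates. In SB19 the lines of the diets lie close together, and in the highest part the ND plates sit between 783 and 876 and the MCDD plates between 663 and 1118.

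The whole distribution of wells was then compared, as the mean absolute difference between diets over the 1st to the 99th percentile. For genes this distance was 0.0694 on the log2 scale (exact permutation, p = 0.716, adjusted p = 0.819), and for genes at a given total it was 0.0920 (exact permutation, p = 0.519, adjusted p = 0.819). Neither passed. The width of the distribution within a plate, the distance from the 25th to the 75th percentile of log2 genes, averaged 1.65 ± 0.30 on MCDD (SD, n = 10) and 1.68 ± 0.09 on ND (SD, n = 8), and the difference was -0.02 ± 0.12 (SE; exact permutation, p = 0.861). The narrowest and the widest plates were both MCDD plates of SB19, at 1.21 and 2.19.

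**Figure D3:**
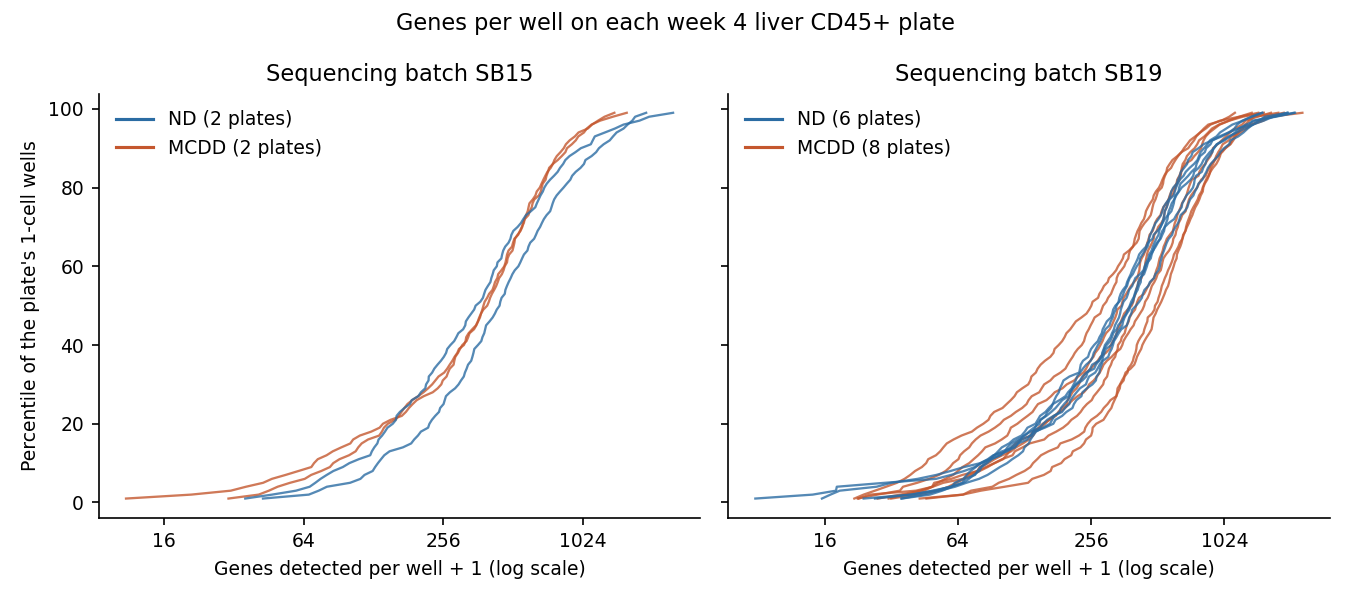
Each line is 1 plate and gives the percentile of its 1-cell wells (vertical axis) at each number of genes detected plus 1 (horizontal axis, log scale), with ND in blue and MCDD in orange and a panel for each sequencing batch. In SB19 the blue lines run together through the middle while the orange lines spread on both sides of them, with plate medians from 255.5 to 519 genes. This does not hold at the ends. At the 5th percentile ND plates 1.2 and 2.5 lie lowest, at 28.95 and 31 genes, and at the 95th no MCDD plate lies above every ND plate.

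Of the 6 percentiles of genes tested, the 95th stood farthest apart between the diets. The 95th percentile of genes was 1402 and 1529 on the ND plates of SB15 and 1071 and 1060 on its MCDD plates, with no overlap. In SB19 it ran from 1043 over a median of 1186 to 1304 on ND and from 826 over 1032 to 1290 on MCDD. There 4 of the 8 MCDD plates lay below every ND plate and none lay above every ND plate. The log2 difference was -0.26 ± 0.10 (SE), or 0.837-fold with an interval of 0.728 to 0.967. Its unadjusted p was 0.0223, and it failed adjustment over the 6 percentiles tested (exact permutation, adjusted p = 0.134). It was -0.46 in SB15 and -0.20 in SB19, and SB19 on its own gave an unadjusted p of 0.114. Leaving out any 1 plate gave differences from -0.295 to -0.225, with adjusted p of at least 0.0571. The 90th percentile differed by -0.12 ± 0.10 (SE) and the 75th by -0.05 ± 0.10, and the 5 other percentiles had p from 0.240 to 0.969 in exact permutation tests.

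Macrophages and dividing leukocytes are among the cells known to be rich in RNA, though no cell was identified here. The share of wells with 1000 genes or more was 10.0% and 15.0% on the ND plates of SB15 and 5.79% and 6.58% on its MCDD plates. In SB19 it was 7.63% ± 1.59 on ND (SD, n = 6) and 6.55% ± 3.56 on MCDD (SD, n = 8). The MCDD plates of SB19 parted into 4 below every ND plate, from 2.89% to 3.95%, and 4 from 7.89% to 11.1%. Over both batches the difference in percentage points was -2.25 ± 1.36 (SE, interval -5.23 to 0.87; exact permutation, p = 0.142, adjusted p = 0.785). At a threshold of 1500 genes the share averaged 1.5% ± 1.13 on MCDD (SD, n = 10) and 2.99% ± 1.41 on ND (SD, n = 8) with both batches pooled. In SB15 the means were 0.92% on MCDD and 4.87% on ND (n = 2 each). In SB19 they were 1.64% ± 1.18 on MCDD (SD, n = 8) and 2.37% ± 0.93 on ND (SD, n = 6). The difference at 1500 genes gave p = 0.0436 before and p = 0.349 after adjustment (exact permutation). At 500 genes or more the difference had the opposite sign, 1.34 percentage points, so of these 3 thresholds only 1000 and 1500 gave a lower share on MCDD. The well with the most genes, 5038 at a total of 2415978, was on an ND plate.

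The totals at the rich end differed in the same direction as the genes. The 95th percentile of the total was 221225 and 180954 on the ND plates of SB15 and 121733 and 124904 on its MCDD plates. In SB19 it ran from 158190 to 224506 on ND and from 102807 to 188076 on MCDD, where plates 1.2, 2.3, 2.4 and 2.5 lay below every ND plate. Of these, only 2.4 and 2.5 were also among the 4 lowest in the 95th percentile of genes, the other two of which were 1.4 and 1.5. The log2 difference was -0.38 ± 0.11 (SE), or 0.769-fold, with an unadjusted p of 0.00977. It was -0.70 in SB15, with 2 plates a diet, and -0.29 in SB19, where p was 0.0586 on its own (exact permutation). This readout was chosen after the 95th percentile of genes had been seen. It passed adjustment over the 3 readouts chosen then (exact permutation, adjusted p = 0.0293). It failed over 17 plate comparisons of the diets, the 8 main ones, the 6 percentiles and these 3 (exact permutation, adjusted p = 0.166). The parts of the total and the other thresholds were not in that family. At a given total the 95th percentile of genes differed by -0.15 ± 0.16 (SE; exact permutation, p = 0.346). Totals of 500000 or more were found in 16 of 3040 ND wells (0.526%) and 11 of 3800 MCDD wells (0.289%). Some positions had high totals over the 18 plates of both diets. Well H15 had a median total of 281710 at a median of 469.5 genes, N22 240810 at 706 and D12 178120 at 869. How far such positions shape the rich end was not tested. Whether the lower totals account for the lower gene numbers at the rich end was not tested either.

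**Figure D4:**
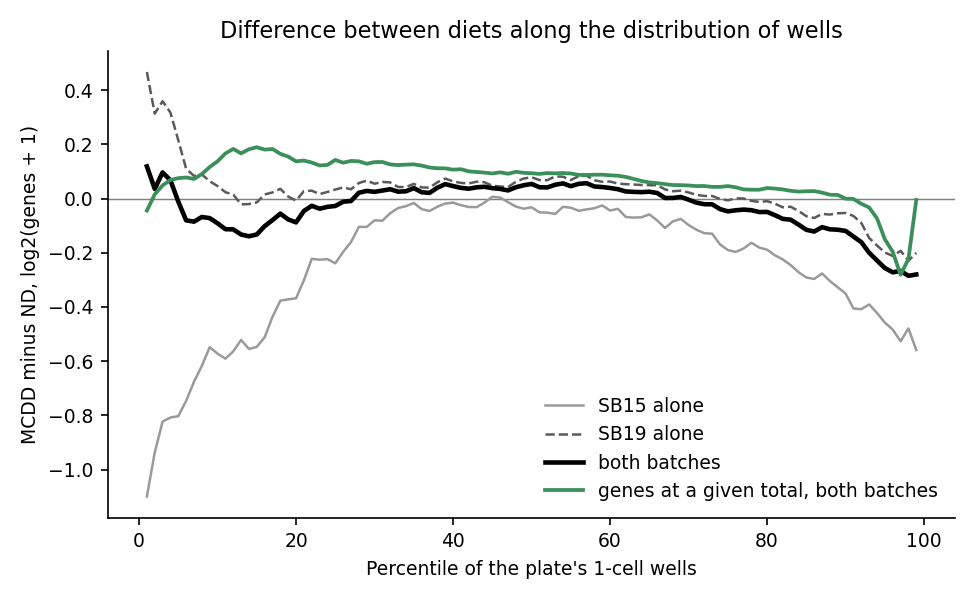
The vertical axis gives the difference MCDD minus ND in log2(genes + 1) at each percentile of the plates' 1-cell wells (horizontal axis), for both batches (black), SB15 alone (light grey), SB19 alone (dashed) and, in green, for genes at a given total over both batches. The black line stays near 0 through the middle, at 0.05 at the 50th percentile, and lies at -0.26 at the 95th. The grey line of SB15, with 2 plates a diet, lies below 0 at nearly every percentile and farthest below at the ends.

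At the gene-poor end the share of wells under 100 genes averaged higher on MCDD in both batches, and the difference did not pass the test. Wells under 100 genes made up 10.0% and 5.00% of the ND plates of SB15 and 15.0% and 12.1% of its MCDD plates. In SB19 they made up 12.2% ± 1.5 on ND (SD, n = 6) and 12.9% ± 6.92 on MCDD (SD, n = 8). The 2 MCDD plates with the fewest such wells had 3.95% and 5.26%, and the 2 with the most had 20.3% and 23.9%. The difference over both batches was 1.83 ± 2.42 percentage points (SE, interval -3.31 to 6.86; exact permutation, p = 0.458, adjusted p = 0.819). The MCDD plates at 3.95% and 23.9% had 95% Wilson intervals of 2.41% to 6.41% and 19.9% to 28.5%, which cover counting error only.

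Part of the gene-poor wells on 2 ND plates lay side by side. On ND plate 1.2 of SB19, 18 of the 24 wells of row M had a total under 1500, and the row's median was 17 genes at a total of 160.5, against 372.5 genes in the plate's other wells. On ND plate 2.5 of SB19 the near-empty wells filled a corner, rows M to P of columns 19 to 24, where 22 of 24 wells had a total under 1500 and the median was 22 genes, against 436.5 elsewhere. The patch medians in total, 160.5 and 264, lay below every well listed with no cell on the same plates. Those wells held 2129 to 31834 on plate 1.2 and 1650 to 39413 on plate 2.5. The reason was not tested. On the other 16 plates the same row held 2 wells with a total under 1500 in all and the same corner 4. Without these patches, left out after they had been seen, the difference in the share under 100 genes was 3.14 rather than 1.83 percentage points, again short of the threshold. The 95th percentile difference without them was -0.27.

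**Figure D5:**
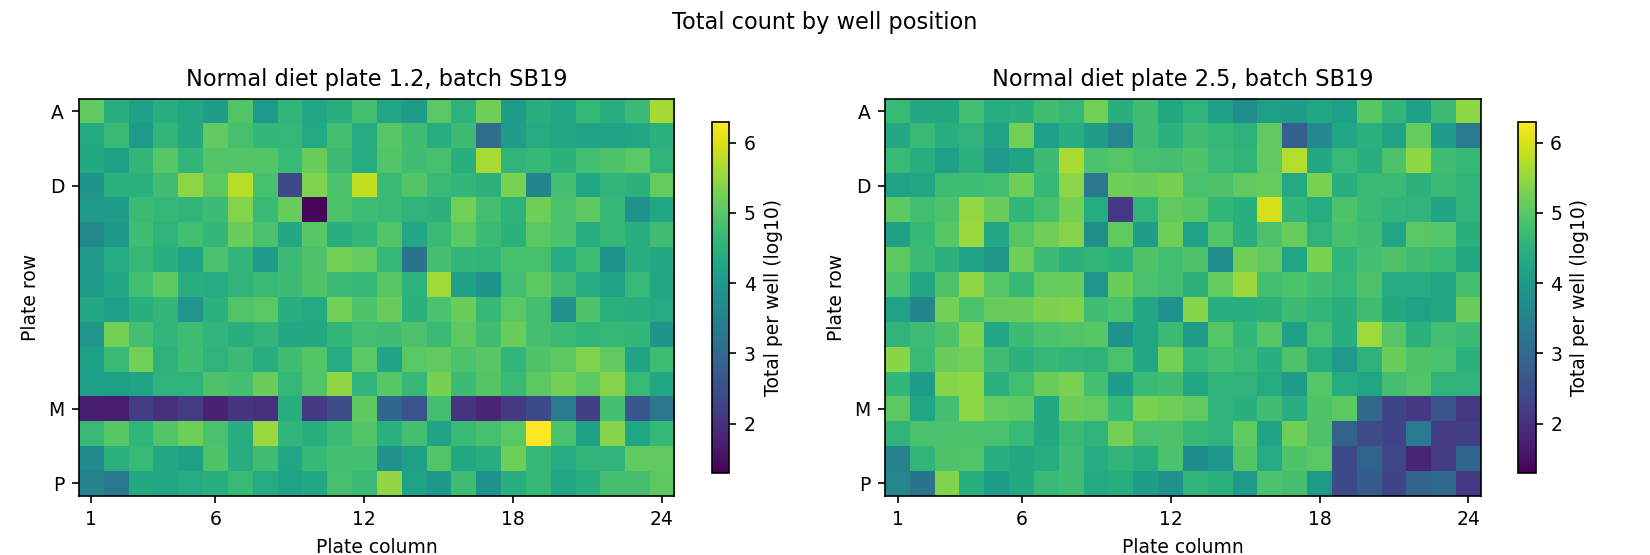
The colour gives the log10 of the total in each well of ND plates 1.2 and 2.5 of SB19, by plate row (vertical axis, A to P) and column (horizontal axis, 1 to 24). Dark wells fill row M of the left plate, where 18 of 24 have a total under 1500, and the lower right corner of the right plate, where 22 of 24 do.

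Other poor wells recurred at the same position, and so with the same cell barcode, on plates of both diets. The barcodes are 7 bases long, the same set served every plate, and a second, pool barcode told the plates of a batch apart. The barcodes of the 4 poorest positions are shown because they mark wells that gave few genes under both diets, written whole in capitals as deposited.
D9: GACCTGT
E10: CGCAATC
B17: GTAATCC
G14: ACAGCTC
Well D9 had a median of 8 genes and E10 of 18, and both were among the poorest 5% of wells on all 18 plates. B17 had a median of 37.5 genes and was among the poorest 5% on 14 plates, and G14 had 52 and was so on 12. The mean log2 distance from the plate on ND and MCDD was -5.20 and -4.83 for D9, -4.31 and -4.13 for E10, -2.46 and -3.11 for B17, and -2.75 and -2.42 for G14, all far below 0 under both diets. Leaving out all 4 left the difference in genes at 0.04 and that in the 95th percentile at -0.26. The wells of the outer rows and columns also had lower totals, by 0.71 on the log2 scale against the plate mean, and more genes at a given total. Without them the differences were 0.00425 in median genes and -0.24 in the 95th percentile.

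All 4 wells listed with no cell held counts on every plate, and 1 of them stood out. Well O2, with the barcode CGTACGT, had the highest total of the 4 empty wells on 17 of the 18 plates. Its total ran from 2755 to 119246 on MCDD plates, with a median of 32482.5, and from 3219 to 176060 on ND plates, with a median of 44447. The medians of the 3 other empty wells lay between 1634 and 6424 in each diet. Its genes ran from 11 to 869 with a median of 36.5, and were at most 64 on 14 of the 18 plates. The other 4 plates, 3 of them in SB15, had 104, 220, 247 and 869 genes there. The exception in total was ND plate 2.4 of SB19, where O1 was higher. O2 was also the highest of the 4 on 36 of the 39 liver CD45+ plates of other weeks and on 8 of the 28 plates of other sorts in the same table.

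The MCDD plates of SB19 differed from its ND plates in how far they lay from each other. The SD between plates of the genes at a given total was 0.34 on MCDD (n = 8) and 0.05 on ND (n = 6), a ratio of 6.51. This comparison was chosen after the plates had been seen, and was tested by permuting the plates' deviations from their diet's mean in all 3003 ways (p = 0.00500, adjusted p = 0.0125 over 5 readouts). The 95th percentile of genes spread 2.34 times as widely on MCDD (permutation, adjusted p = 0.0125) and the share of wells under 100 genes 4.63 times (permutation, adjusted p = 0.0283). The median genes did not pass (permutation, adjusted p = 0.0579), nor did the median total (permutation, adjusted p = 0.138). Each of these calls depended on single plates, and the call for the share under 100 genes depended on the patches as well. Without MCDD plate 1.4 or 1.5, those with the fewest genes, the ratio for genes at a given total was 6.13 or 5.91 and no longer passed (permutation, adjusted p = 0.0612 and 0.0685), and the 95th percentile lost its call with it at the same adjusted p. The share under 100 genes kept its call without 8 of the 14 plates, and its ratio went from 3.81 without MCDD plate 1.4 to 9.74 without ND plate 2.4. Without the patches of near-empty wells on the ND plates that ratio was 2.52 and did not pass (permutation, adjusted p = 0.0841), while the ratios for genes at a given total and for the 95th percentile were 6.45 and 2.13 and passed (permutation, adjusted p = 0.0200 for both).

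The spread was carried by plates at both ends. Plates 1.4 and 1.5 had the fewest genes, 255.5 and 289, at totals of 33802.5 and 39156.5. Plates 2.3 and 2.2 had the most, 519 and 496.5, at totals of 41423.5 and 51783.5. Plate 1.2 had the lowest total of all 18 plates, 22247.5, and still 407.5 genes, which made it the highest at a given total. Across the 14 plates of SB19 the log2 medians of genes and total had a Pearson r of 0.27 (permutation p = 0.344) and a Spearman rho of 0.44 (permutation p = 0.115), and r was 0.43 without the 2 plates farthest in total. Within diets r was 0.75 and rho 0.83 over the 6 ND plates (exact permutation, p = 0.0708 and 0.0583), and r 0.29 and rho 0.43 over the 8 MCDD plates (permutation, p = 0.498 and 0.299). Adjusted over the 5 correlations, p for r was 0.354 or more. In SB15 the wider spread was on the other side, with an SD in genes at a given total of 0.17 on ND and 0.03 on MCDD (n = 2 each). With both batches pooled, the ratio at week 4 was 3.83 (permutation p = 0.0284, adjusted p = 0.170 over 12 tests of 4 readouts in 3 weeks). The 95th percentile of genes at week 4 had a ratio of 2.27 (permutation p = 0.00570, adjusted p = 0.0684). For genes at a given total the ratio was 0.719 at week 2 and 0.775 at week 8, the ND plates spreading more. At week 2 the other readouts also had ratios below 1, at 0.661 for the 95th percentile, 0.508 for the share under 100 genes and 0.783 for median genes. At week 8 the other readouts had ratios above 1, at 1.51 for the 95th percentile, 1.74 for the share under 100 genes and 1.35 for median genes. No readout passed adjustment in any of these weeks.

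The effect of diet at week 4 was set beside those at weeks 2 and 8, from 19 and 18 plates of the same sort, 2 MCDD plates of week 8 entering no comparison because no ND plate of that week from their batch was analysed here. For median genes the log2 differences were 0.05 ± 0.13 at week 4, 0.19 ± 0.10 at week 2 and -0.16 ± 0.14 at week 8 (SE). For genes at a given total they were 0.09 ± 0.12, 0.01 ± 0.12 and -0.13 ± 0.19. None of the 4 differences between week 4 and another week passed (100000 permutations of the diet labels, adjusted p from 0.522 to 0.566). For the 95th percentile, chosen after it had been seen, the effects were -0.26 ± 0.10 at week 4, -0.17 ± 0.08 at week 2 and 0.17 ± 0.16 at week 8. Week 4 and week 8 differed by -0.42 with an unadjusted p of 0.0360, which failed adjustment over both weeks (permutation, adjusted p = 0.0721). A lower gene-rich end was thus not shown to be particular to week 4.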

How the data were processed

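Each sample is a plate, and the labels give its sort, diet and week. The authors deposited 1 row per well with whole-number counts: the cells listed in the well, a total and the genes detected. The submitters' processing notes name bcl2fastq 2.15.0.4 and the build mm10; aligner, counting method, annotation and filters: not given in the sources used here. No well was filtered out. With no gene-level values used here, no named gene or marker list could be scored, so the named genes rule named none. The plate was the replicate. Plate values were compared by exact two-sided permutation of diet within sequencing batch (18018 relabellings; 3003 in SB19; 6 in SB15, where p cannot go below 0.333), with batch differences weighted by their plates. Intervals hold the shifts not rejected at 95%. Benjamini-Hochberg adjustment covered 8 main comparisons, 6 percentiles, 5 parts of the total and 4 week comparisons; an adjusted p under 0.05 was a call. Percentiles used log2(genes + 1). The tests of plate values between diets, genes at a given total among them, were checked on simulated plates with a like spread in both diets. The check therefore does not cover the unequal spread seen in SB19. The tests of spread between plates, of weeks, of blocked plates and of correlations had no such check. Wells, thresholds and tests were chosen with earlier results of these data known. Computations ran in Python 3.11.15 with pandas 2.3.3, numpy 2.4.6 and scipy 1.17.1, and plots in matplotlib 3.10.9.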

Additional observations from a re-analysis of the deposited data

How the results depend on the processing

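None of the 8 main comparisons, 6 percentiles or 5 parts of the total passed adjustment in any alternative run for it: each plate left out in turn, 1 batch alone, no stratification by batch, outer wells or low-yield wells left out, wells with at least 100 genes (not run for the shares, percentiles and parts of the total), other curves and thresholds, and, chosen after seeing the data, the patches or their plates left out (the latter not run for the parts of the total or percentiles other than the 95th). Median genes changed sign in SB15 alone (-0.0323) and with the mean of log2(value + 1) (-0.0337). The within-plate spread changed sign in SB15 alone (0.0492), without the outer wells (0.0312), without the patches (0.0316) and over the single plates left out (-0.0792 to 0.0279). The share of rich wells changed sign at 500 genes or more (1.34 percentage points). Blocking plates by their shared number within a batch gave 0.0759 for median genes, -0.186 for the total, 0.129 for genes at a given total and -0.256 for the 95th percentile, with no call changed. MCDD plates 1.3 and 1.5 of SB19 share no number with an ND plate of that batch and dropped out of this run. Its values therefore mix the blocking with a change of plates. Leaving out MCDD plate 1.5 alone, without blocking, gave 0.143 for genes at a given total. Only 4 of the 8 pairs correlated above 0.1, all of them in SB19. The SB15 pairs share 1 value, 0.0512, by construction, since each diet has 2 plates there. In median genes, the plates' deviations from the mean of their diet and batch had r = -0.617 over the 8 pairs, which was not tested. These values do not settle whether the numbers pair the plates, and the main tests did not use them as pairs. The weeks gave 0 calls with and without batches. Depth and diet could not be separated further because wells cannot be thinned to 1 total without gene-level counts. Between-plate ratios in SB19 over the plates left out were 5.40 to 7.67 for genes at a given total, 2.09 to 3.34 for the 95th percentile, 3.81 to 9.74 for the share under 100 genes (2.52 without the patches), 2.35 to 3.41 for median genes (passing without MCDD plate 1.2 or 2.4) and 1.87 to 4.47 for the total (passing without ND plate 2.3).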
